A study of Arabidopsis thaliana with 18 samples.

Results

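GTL1 and DF1 are trihelix transcription factors of Arabidopsis thaliana, and the comparison described here is the loss of GTL1 in root hair cells that already lack DF1. It sets 3 arrays of the double mutant gtl1df1 (alleles gtl1-1 and df1-1) against 3 arrays of the single mutant df1 (allele df1-1), 6 of the 18 arrays of the series. Both groups carried df1-1 and the sorting marker pEXPA7:NLS-GFP, a nuclear GFP driven by the promoter of EXPA7, and both were 5-day-old seedling roots, so that the allele gtl1-1 is the labelled difference between them. The other arrays used here are 3 each of gtl1 (gtl1-1), of wild type (WT), which carried the same marker, and of GTL1ox, which was sorted on its own fusion protein pEXPA7:GTL1-GFP. The sixth genotype, DF1ox, sorted on pEXPA7:DF1-GFP, entered the fit and a few levels given for all genotypes. Each mutation was represented by 1 insertion allele. GFP-positive protoplasts were sorted from dissected root tips, according to the study's methods, and total RNA was hybridised to ATH1 arrays. The series' own design note speaks of nuclei instead. All values are deposited log2 expression values, and a difference of 1 on this scale is a 2-fold difference.

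Root hairs are single epidermal cells that elongate by tip growth, in which vesicles from the endoplasmic reticulum (ER) and Golgi bring membrane and wall polysaccharides to one point of the cell surface. The wall at the tip is built from cellulose, xyloglucan and pectin and is remodelled by expansins, xyloglucan enzymes, endoglucanases and pectin methylesterases. GTL1 and DF1 are known as repressors of hair growth that end elongation.

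The label of the df1-1 insertion was checked on DF1 itself (AT1G76880). Its probe set read 4.0, 3.41 and 5.03 in gtl1df1 and 3.74, 3.30 and 3.30 in df1, while gtl1 arrays read 8.51, 8.38 and 8.83 and WT arrays 7.23, 7.26 and 7.57. Both genotypes with df1-1 thus lay below every gtl1 and WT array. GTL1ox arrays read 4.83 to 5.53 and DF1ox arrays were highest, at 14.09 to 14.30. DF1 was 0.70 ± 0.32 (SE) higher in gtl1df1 than in df1, a difference that did not pass the test (adjusted p = 0.185). The test was limma's moderated test on all 18 arrays with Benjamini-Hochberg adjustment, with 0.05 as the threshold for a call. GTL1 has no probe set named with it in the annotation used and was not analysed here.

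The root hair label was set beside 2 expansins of hair cells. The cells were sorted on the EXPA7 promoter, so a high EXPA7 level gives no separate check of the label. EXPA7, whose promoter drove the sorting marker, read 12.92, 12.78 and 12.99 in gtl1df1 and 13.19, 13.15 and 13.0 in df1. EXPA18 read 13.89, 13.94 and 14.03 in gtl1df1 and 14.01, 14.04 and 14.14 in df1. Both genes stood near the top of the range of values in every array of both genotypes. XTH26, also listed as a root hair gene, read 11.09, 10.78 and 10.82 in gtl1df1 and 10.33, 10.64 and 11.07 in df1. EXPA7 fell by 0.21 ± 0.06 (SE, adjusted p = 0.0357), a call that was lost when gtl1df1 and df1 arrays of the same replicate number were paired as a block in a fit to these 6 arrays (adjusted p = 0.433) and without either of df1 replicates 1 and 2 (adjusted p = 0.123 each) or gtl1df1 replicates 1 and 2 (0.073 and 0.147). EXPA18 did not pass the test. The 37 marker names listed for other epidermal cells, ground tissue, stele and root cap have no annotated probe set, so these cell types were not analysed here.

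The 2 groups also differed in their control probe sets. The difference between 3′ and 5′ control probe sets, a measure of RNA integrity and labelling length, lay at 2.05 to 2.09 in gtl1df1 and at 2.14 to 2.28 in df1. The BioB spike-in read 7.29 to 7.61 in gtl1df1 and 8.14 to 8.32 in df1, and the 5S ribosomal RNA control 3.61 to 4.11 in gtl1df1 and 5.35 to 6.30 in df1. The actin 3′ control ran the other way, at 10.48 to 10.60 in gtl1df1 and 9.21 to 9.53 in df1. None of these ranges overlapped between the groups. With the 3′ minus 5′ difference as a covariate 3497 probe sets were called, among them 81.5% of the calls given below, and the part of the other 3 controls in the results was not tested. The array medians did not differ in this way, at 3.004 to 3.04 in gtl1df1 and 3.001 to 3.03 in df1. Arrays of one genotype correlated at 0.996 to 0.997 within gtl1df1 and within df1, and at 0.981 to 0.986 between gtl1df1 and df1. BioB also divided the series, since it read 7.29 to 8.32 in the 9 arrays of gtl1df1, df1 and gtl1 and 2.61 to 3.20 in the 9 arrays of WT, GTL1ox and DF1ox. Wherever a mutant level is set beside WT, GTL1ox or DF1ox below, genotype and this division cannot be told apart.

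**Figure D1:**
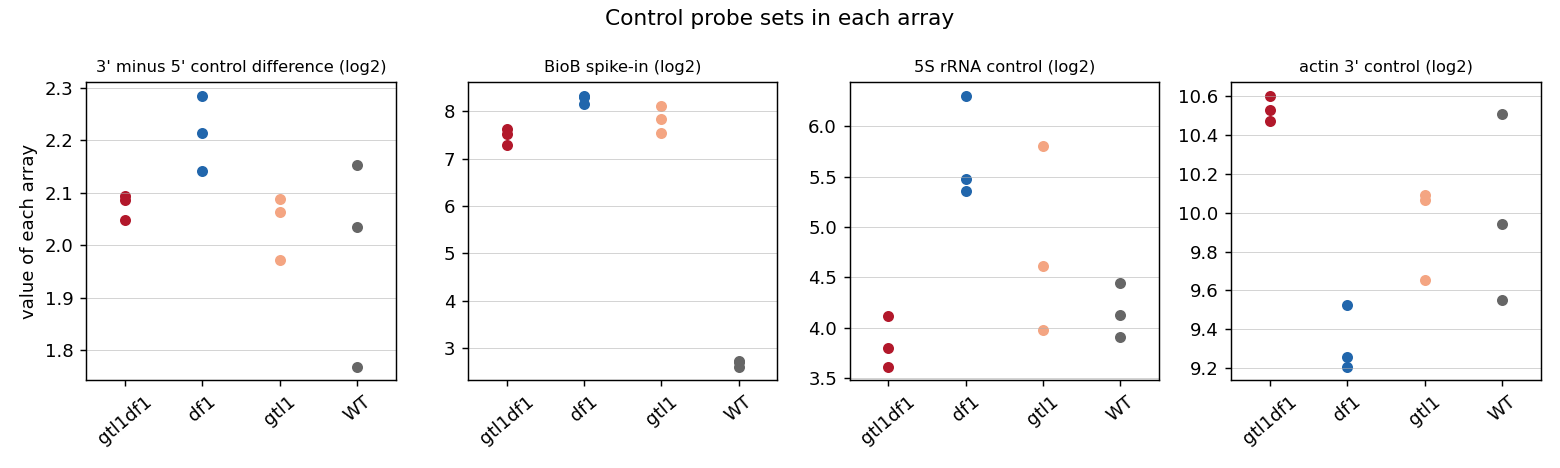
Control values of each array (vertical axes, log2) in gtl1df1, df1, gtl1 and WT, 1 point per array. The 3 gtl1df1 arrays and the 3 df1 arrays occupy separate ranges in all 4 panels, and BioB lies under 3.20 in WT.

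Between gtl1df1 and df1, 3968 of 22746 probe sets differed, 17.4% of those tested, at an adjusted p under 0.05. Of these, 2097 (9.22%) were higher and 1871 (8.23%) lower in gtl1df1. A difference of more than 2-fold was found for 746 probe sets that rose (3.28%) and 541 that fell (2.38%), together 5.66% of those tested, and the median size among all calls was 0.74. The values of the 2 groups did not overlap in 6316 probe sets (27.8%). These calls come from a fit that did not pair the arrays. With replicate numbers as a block, the fit to the 6 arrays alone called 459 higher and 379 lower, while the block added to the 18-array fit called 4101 in all. The block in the 6-array fit kept 722 of the 3968 calls (18.2%), and the block in the 18-array fit kept 94.7%. Without a block, the fit to the 6 arrays kept 63%. The 6-array fits leave fewer residual degrees of freedom to estimate the spread than the 12 of the main fit. How far the calls lost there come from the pairing was not tested. The calls depended on the level of the transcript, since 0.601% of the 11310 probe sets with a mean up to 3 were higher and 1.06% lower, whereas of the 1877 with a mean between 9 and 11, 25% were higher and 21.2% lower. Of the called differences larger than 4, 8 were rises and 1 was a fall. The genes below are those of probe sets with 1 gene in the annotation.

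The largest rise of a gene with a symbol was that of ATPMEPCRB (PME41), a pectin methylesterase, which removes methyl groups from wall pectin. It read 8.03, 8.07 and 8.40 in gtl1df1 and 4.31, 4.86 and 4.43 in df1, so that every gtl1df1 array lay more than 3 above every df1 array. The rise was 3.63 ± 0.21 (SE, adjusted p = 4.15e-07). Its level in gtl1, 6.66, 6.37 and 6.71, lay between those of the double mutant and WT (5.04, 4.34 and 4.11).

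CSLC04, a synthase of the glucan backbone of xyloglucan, read 8.51, 8.65 and 8.10 in gtl1df1 and 4.81, 4.89 and 5.42 in df1. The rise was 3.38 ± 0.31 (adjusted p = 1.40e-05, and 0.0677 with the block in the 6-array fit). In gtl1 it stood at 8.10 to 8.20, close to the double mutant, and in WT at 5.12 to 6.36, close to df1. CSLC6, of the same family, rose by 0.48 ± 0.09 (adjusted p = 0.0024, and 0.111 with that block). Of the 7 annotated members of the cellulose synthase family, 2 rose (28.6%), none fell and 5 were not called. The share that rose was 9.22% over all probe sets and 21.1% over those with a mean between 7 and 9.

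AT4G28650, annotated as PXL2 for its likeness to the receptor kinase PXY, read 6.98, 7.36 and 6.81 in gtl1df1 and 3.92, 4.02 and 3.78 in df1. It rose by 3.15 ± 0.40 (adjusted p = 0.000152). Its gtl1 arrays were spread, at 4.78, 6.26 and 6.38, and lay above the WT range of 3.61 to 4.77.

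The other 9 of the 12 largest rises belong to loci without a symbol in the annotation. AT5G41280 was among them, with 10.01, 9.99 and 9.80 in gtl1df1 and 5.11, 4.93 and 4.44 in df1, a difference of 5.11 ± 0.39 (adjusted p = 3.34e-06). AT4G02160 read 7.65, 7.06 and 7.36 in gtl1df1 and 2.48 in each df1 array, which is near the lowest value on the arrays (2.22), so its rise was at least 4.88 ± 0.15. AT3G59480 read 7.56, 7.80 and 6.66 in gtl1df1 and 2.25, 2.24 and 2.22 in df1, a rise of at least 5.10 ± 0.46. These 3 loci had intermediate means in gtl1, of 7.59, 3.44 and 4.54, above their WT means of 4.95, 2.48 and 2.25. AT3G16370 rose by 3.88 ± 0.26, and its mean was 6.87 in gtl1 and 3.46 in WT.

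A second pattern among the largest rises was a low level in df1 beside a high one in WT. AT1G27400 read 8.49, 7.85 and 8.01 in gtl1df1 and 5.27, 4.33 and 5.18 in df1, while gtl1 read 6.30 to 7.37 and WT 7.64 to 10.11. It was 3.19 ± 0.51 higher in gtl1df1 than in df1 (adjusted p = 0.000787). AT5G16130 and AT3G16080 rose by 3.10 ± 0.44 and 2.97 ± 0.51, with means of 10.2 and 9.20 in gtl1df1, 7.08 and 6.22 in df1, and 10.3 and 9.39 in WT. In these 3 loci the double mutant mean thus lay nearer to WT than to df1. The WT arrays differ from both mutants in BioB as given above, and this cannot be told apart from genotype in the WT level. AT1G11220 rose by 4.07 ± 0.24 and AT2G43870 by 2.92 ± 0.35. With the block in the 6-array fit, 8 of the 12 rises stayed past the threshold, and CSLC04, AT1G11220, AT5G16130 and AT2G43870 did not (adjusted p = 0.0677, 0.0553, 0.0726 and 0.0871). Leaving out any of the 6 arrays left all 12 called.

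**Figure D2:**
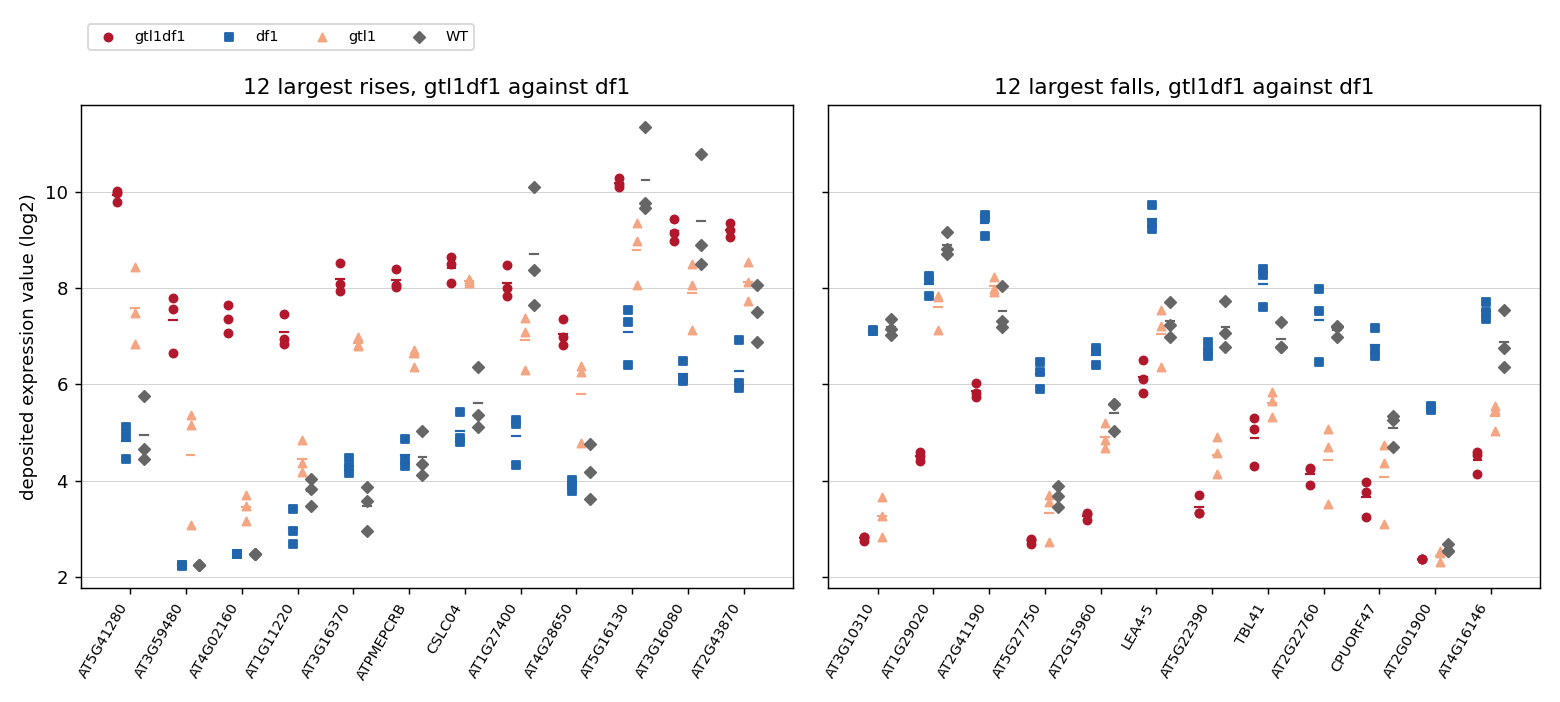
Deposited log2 value (vertical axis) of each array for the 12 largest rises and 12 largest falls of gtl1df1 against df1, in gtl1df1, df1, gtl1 and WT (points are arrays, short lines are means, n = 3). By the rule of choice gtl1df1 and df1 do not overlap, whereas gtl1 and WT lie nearer to either group depending on the gene.

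The largest measured fall was that of AT3G10310, which read 2.83, 2.82 and 2.74 in gtl1df1 and 7.11, 7.13 and 7.11 in df1, and it fell by at least 4.32 on the log2 scale (SE 0.16, adjusted p = 6.09e-09). This locus has no symbol in the annotation. Its level was also low in gtl1, at 2.83, 3.27 and 3.67, and high in WT, at 7.03 to 7.37, and GTL1ox arrays lay higher still, at 9.33 to 9.62. AT5G22390 showed the same order of means, with 3.46 in gtl1df1, 6.73 in df1, 4.54 in gtl1, 8.94 in GTL1ox and 7.20 in WT.

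LEA4-5, a late embryogenesis abundant protein that protects cells under water deficit, read 6.11, 6.51 and 5.82 in gtl1df1 and 9.35, 9.74 and 9.22 in df1. It fell by 3.29 ± 0.34 (adjusted p = 3.84e-05). The df1 arrays lay above those of gtl1 (6.37 to 7.55) and WT (6.99 to 7.71), while GTL1ox arrays read 8.40 to 9.42 and DF1ox arrays were higher still, at 10.17 to 10.64. TBL41, of a family that acetylates wall polysaccharides, read 5.30, 5.08 and 4.30 in gtl1df1 and 8.27, 8.39 and 7.61 in df1, and it fell by 3.20 ± 0.27 (adjusted p = 7.30e-06). CPUORF47, annotated as a conserved peptide upstream open reading frame, read 3.77, 3.98 and 3.26 in gtl1df1 and 7.17, 6.72 and 6.59 in df1, and fell by 3.16 ± 0.37 (adjusted p = 0.000103).

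AT2G01900 read 2.37 in each gtl1df1 array and 5.56, 5.52 and 5.46 in df1, so its fall was at least 3.15 ± 0.17. The other genotypes lay below df1, with 2.32 to 2.53 in gtl1, 2.53 to 3.36 in GTL1ox, 2.22 to 2.57 in DF1ox and 2.53 to 2.68 in WT. AT2G41190 read 5.82, 5.74 and 6.03 in gtl1df1 and 9.09, 9.46 and 9.51 in df1, and it fell by 3.49 ± 0.19, with 7.93 to 8.23 in gtl1. The remaining 5 of the 12 largest falls, AT1G29020, AT5G27750, AT2G15960, AT2G22760 and AT4G16146, are loci without a symbol that fell by 3.59, 3.46 (at least), 3.35, 3.19 and 3.11. With the block in the 6-array fit, 11 of the 12 falls stayed past the threshold, and AT2G22760 did not (adjusted p = 0.0700). All 12 stayed called without any one array.

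Genes of the secretory pathway were mostly higher in gtl1df1. The lists of ER, Golgi, exocyst, tubulin, ATP-citrate lyase and GDP-sugar genes, and those below of GH9, TBL, UDP-glycosyltransferase, dehydration, group IVc bHLH, tetraspanin, ATG8, IQD and organelle genes, were chosen after their values had been seen, so their counts are a description. Of 11 probe sets of ER protein folding and quality control, 8 rose (72.7%) and none fell, with a median difference of 0.62 against 0 over all probe sets. The share that rose was 9.22% over all probe sets and 21.1% over those with a mean between 7 and 9. CRT1b, a calreticulin that folds glycoproteins, read 11.30, 11.37 and 11.30 in gtl1df1 and 9.44, 8.98 and 8.94 in df1, a rise of 2.21 ± 0.33 (adjusted p = 0.000552, and 0.0538 with the block in the 6-array fit). The J-domain co-chaperones ATERDJ2B, ATERDJ3B and ATERDJ2A rose by 1.57, 1.30 and 0.67. S1P, a protease that activates stress factors in the Golgi, the degradation lectin OS9 and the disulfide isomerase PDIL5-1 rose by 0.62, 0.58 and 0.53. The mean level of the list was 7.77 to 7.82 in the gtl1df1 arrays and 6.90 to 7.17 in the df1 arrays, and WT arrays lay between, at 7.26 to 7.64.

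Of 18 probe sets of ER-Golgi and Golgi traffic, 12 rose (66.7%, against 9.22% of all probe sets) and 2 fell (11.1%, against 8.23%), with a median of 0.44. Of all probe sets with a mean between 7 and 9, 21.1% rose and 18.6% fell. The list averaged 8.75 in gtl1df1 and 8.47 in df1, with 8.69 in gtl1 and 8.80 in WT. RAB6A, a Golgi GTPase, read 11.60, 11.48 and 11.55 in gtl1df1 and 10.92, 10.50 and 10.58 in df1, a rise of 0.88 ± 0.10 (adjusted p = 0.000106, and 0.0713 with the block in the 6-array fit). PRA1.B1, a prenylated Rab acceptor, rose by 1.23, ATRER1A, a retrieval receptor of ER membrane proteins, by 0.62, ATSLY1, a partner of ER-Golgi SNAREs, by 0.55, the SNARE SEC22 by 0.51 and the tethering subunit CLUB by 0.43. PRA1.H and PRA1.G2, of the same family as PRA1.B1, fell by 0.97 and 0.90. Of 7 exocyst subunits, which tether vesicles at the plasma membrane, SEC15A alone rose (14.3%, against 9.22% of all probe sets). This share lay below the 21.1% of probe sets with a mean between 7 and 9. SEC15A rose by 0.97 ± 0.16 (adjusted p = 0.00107, and 0.0834 with the block in the 6-array fit).

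Tubulins, the subunits of microtubules, were also higher, with 5 of 7 higher (71.4%, against 9.22% of all probe sets and 25% of those with a mean between 9 and 11) and none lower (median 0.83). These 7 are also 7 of the 8 probe sets of the housekeeping list, which thus gives no separate count. The tubulin list averaged 9.40 in gtl1df1 and 8.81 in df1, with 9.25 in gtl1 and 9.21 in WT. It averaged 9.47 in GTL1ox and 9.17 in DF1ox, so that df1 lay lowest of all genotypes. TUB1 read 11.35, 11.27 and 11.30 in gtl1df1 and 10.46, 10.25 and 10.09 in df1, a rise of 1.04 ± 0.11 (adjusted p = 4.70e-05, and 0.0608 with the block in the 6-array fit). TUA6 read 12.81, 12.83 and 12.82 in gtl1df1 and 12.02, 11.88 and 12.06 in df1, a rise of 0.83 ± 0.12. TUB7, TUA1 and TUB9 rose by 0.88, 1.02 and 0.37. Enzymes that make wall and lipid precursors also rose. All 3 of GDP-sugar synthesis were higher (GME by 1.15, PMM by 0.61 and GER2 by 0.37), as were 3 of 4 subunits of ATP-citrate lyase (75%), which supplies cytosolic acetyl-CoA (ACLB-1 by 1.22, ACLA-2 by 0.55 and ACLA-1 by 0.48). The shares to set beside these short lists are again 9.22% of all probe sets and 25% of those with a mean between 9 and 11.

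Called members of these lists were fewer with the block in the 6-array fit, at 1 of 11 for ER protein folding, 3 of 18 higher for ER-Golgi traffic, 1 of 7 tubulins, 1 of 3 for GDP-sugar synthesis and 0 of 4 for ATP-citrate lyase. The block in the 18-array fit gave 8, 11, 5, 3 and 3. Leaving out 1 array gave 5 to 8 for ER protein folding and 7 to 11 for ER-Golgi traffic. With the 3′ minus 5′ difference as a covariate, 7 of 11 were higher for ER protein folding and 8 of 18 for ER-Golgi traffic. The actin 3′ control averaged 10.54 in gtl1df1 and 9.33 in df1, and its part in these differences was not tested.

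**Figure D3:**
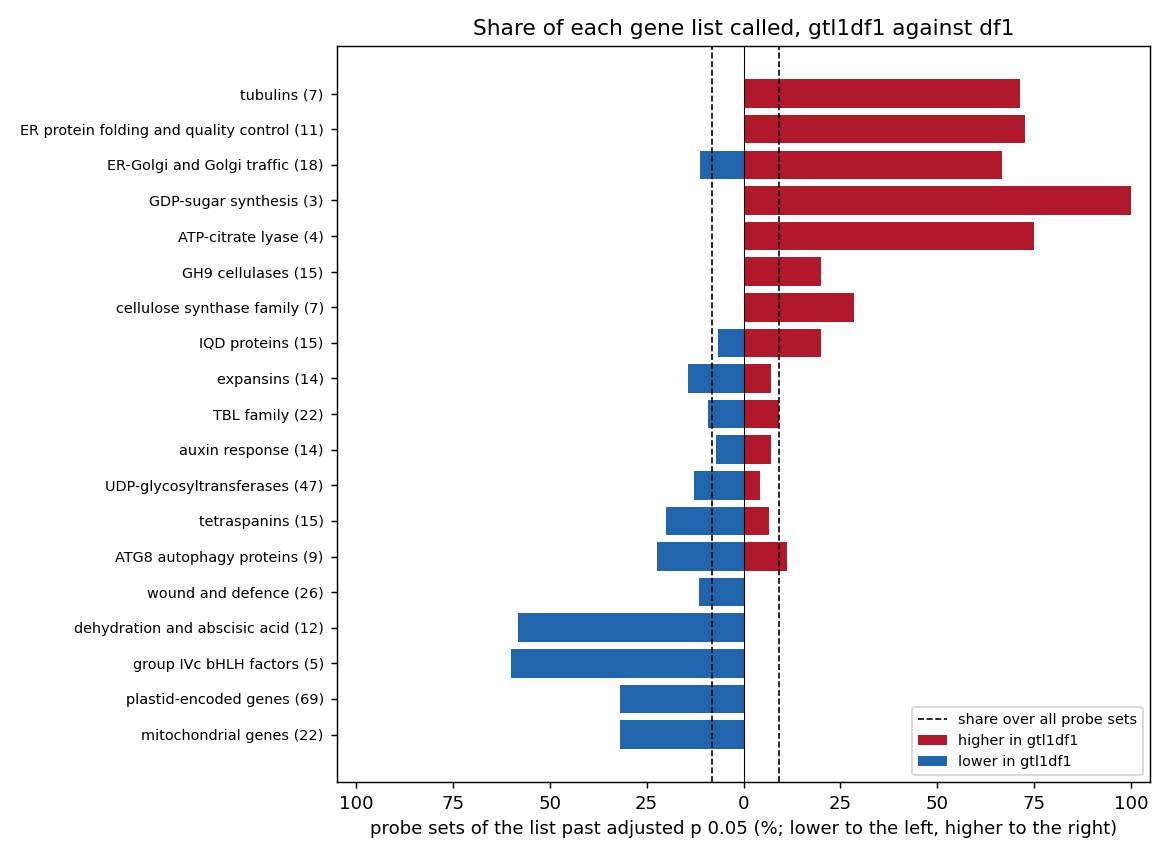
Percentage of the probe sets of each gene list (number in brackets) that were higher (right) or lower (left) in gtl1df1 than in df1 at an adjusted p under 0.05, with dashed lines at the shares over all probe sets, 9.22% and 8.23%. Lists of the secretory pathway, tubulins and sugar synthesis lie on the right, and dehydration, plastid and mitochondrial lists on the left.

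Members of wall-modifying families were called in both directions, where 9.22% of all probe sets rose and 8.23% fell. Of 15 endoglucanases of family GH9, 3 rose (20%) and none fell, while 11 lay within 1 of the lowest value in all 6 arrays. GH9B5 read 6.96, 6.87 and 6.90 in gtl1df1 and 4.43, 5.01 and 5.01 in df1, a rise of 2.10 ± 0.15 (adjusted p = 1.82e-06, and 0.0683 with the block in the 6-array fit). GH9C2 rose by at least 1.71 ± 0.33 and GH9B7 by 0.75 ± 0.19. Of 14 expansins 1 rose (7.14%) and 2 fell (14.3%). EXPB1 rose by 1.21 ± 0.26 (adjusted p = 0.00521, and 0.102 with that block), while EXPA8 fell by 0.81 ± 0.21 (adjusted p = 0.0159, and 0.0542 with that block) and EXPA7 fell as given above. Without df1 replicate 2 neither EXPA8 nor EXPA7 was called. Of 9 xyloglucan enzymes 1 fell (11.1%), XTH18, with 8.02, 7.84 and 8.04 in gtl1df1 and 9.05, 9.13 and 9.17 in df1, and it fell by 1.15 ± 0.17 (adjusted p = 0.000414). The TBL family of 22 had 2 rises, TBL18 by 1.38 and TBL32 by 0.93, and 2 falls, TBL41 as above and TBL38 by 2.12, shares near those over all probe sets.

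Genes of dehydration and abscisic acid response were lower in gtl1df1. Of 12 annotated members 7 fell (58.3%, against 8.23% of all probe sets) and none rose, and the other 5 lay within 1 of the lowest value in all 6 arrays. COR47, a dehydrin, read 12.35, 12.57 and 12.12 in gtl1df1 and 14.06, 14.25 and 14.18 in df1, and it fell by 1.81 ± 0.24 (adjusted p = 0.000228). PUB19, a ubiquitin ligase of drought response, read 6.85, 7.56 and 6.31 in gtl1df1 and 9.11, 9.19 and 8.70 in df1, and it fell by 2.09 ± 0.27 (adjusted p = 0.000179, and 0.0732 with the block in the 6-array fit). COR27, XERICO, DI19 and RD2 fell by 1.53, 1.32, 0.72 and 0.50. The mean level of the list was 5.44 to 5.74 in gtl1df1 arrays and 6.46 to 6.56 in df1 arrays, with 5.87 to 6.03 in gtl1 and 5.95 to 6.32 in WT, and 6.38 to 6.42 in DF1ox. The block in the 6-array fit called 4 of the 12, and leaving out 1 array gave 6 or 7.

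**Figure D4:**
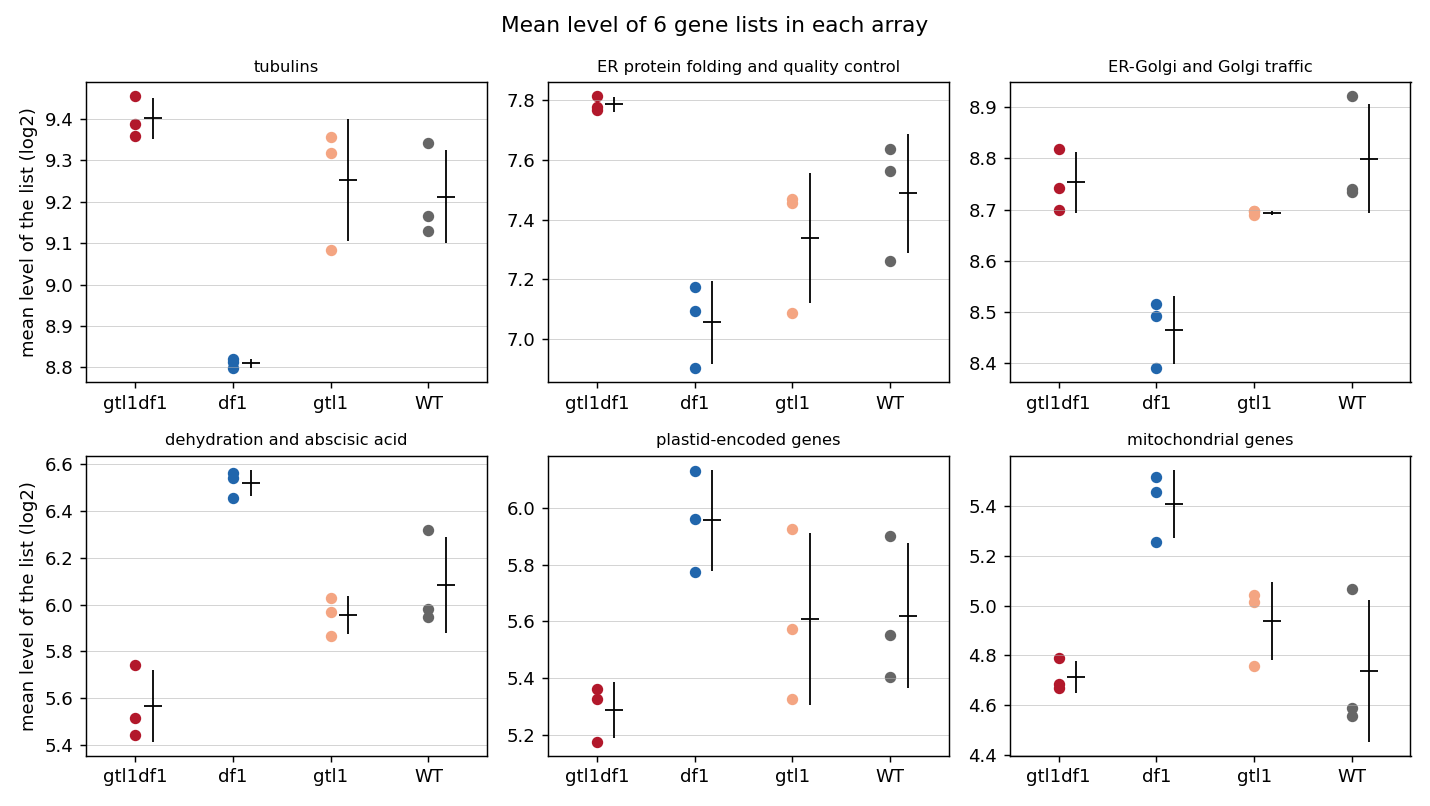
Mean log2 level of 6 gene lists (vertical axes) in each array of gtl1df1, df1, gtl1 and WT, with the mean and SD over 3 arrays in black. In all 6 lists the gtl1df1 and df1 arrays are separate, with gtl1df1 higher in the upper row and lower in the dehydration, plastid and mitochondrial lists.

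Transcripts of hormone and stress genes that were lower in gtl1df1 included GH3.3, which conjugates auxin to amino acids and is induced by auxin. It read 6.61, 7.12 and 6.76 in gtl1df1 and 9.46, 9.09 and 8.54 in df1, and it fell by 2.20 ± 0.27 (adjusted p = 0.000135, and 0.0970 with the block in the 6-array fit), and its WT arrays read 6.81 to 7.22. The auxin response list of 14 had 1 fall and 1 rise (IAA18, at least 0.20 ± 0.06, adjusted p = 0.0432, and 0.190 with the block in the 6-array fit). Each is 7.14% of the list, where 8.23% of all probe sets fell and 9.22% rose. CML38, a calmodulin-like protein, read 7.62, 8.06 and 7.36 in gtl1df1 and 9.50, 9.40 and 8.79 in df1, and it fell by 1.56 ± 0.31 (adjusted p = 0.0034, and 0.0700 with that block). STZ, a zinc finger repressor of stress genes and 1 of 3 falls among 26 wound and defence genes (11.5%, against 8.23% of all probe sets), fell by 1.21 ± 0.38 (adjusted p = 0.0462), a call lost with either block (0.136 and 0.0569) and without any one array other than gtl1df1 replicate 2. RTE1, which restrains the ethylene response, went the other way, with 4.89, 5.03 and 4.72 in gtl1df1, 3.11 in each df1 array and 3.87 to 4.43 in gtl1, a rise of at least 1.77 ± 0.12 (adjusted p = 1.49e-06).

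Members of 5 further families were called, where 9.22% of all probe sets rose and 8.23% fell. Of 47 UDP-glycosyltransferases, which attach sugars to small molecules, 2 rose (4.26%, against 9.22% of all probe sets) and 6 fell (12.8%, against 8.23%). UGT76B1, known to glycosylate defence compounds, read 7.07, 7.65 and 5.30 in gtl1df1 and 10.17, 10.05 and 7.58 in df1. The arrays of the groups overlapped, and replicate 3 was the low one in both. UGT76B1 fell by 2.60 ± 0.71 (adjusted p = 0.0216, 0.000974 with the block in the 18-array fit and 0.0644 with it in the 6-array fit), and was not called without df1 replicate 1, df1 replicate 2 or gtl1df1 replicate 3 (adjusted p = 0.0872, 0.0958 and 0.0988). Of 9 ATG8 probe sets, ubiquitin-like proteins of autophagy, 1 rose (11.1%) and 2 fell (22.2%). Among all probe sets with a mean between 7 and 9, 21.1% rose and 18.6% fell. ATG8G rose by 2.02 ± 0.25, with 5.25, 5.96 and 5.22 in gtl1df1 and 3.87, 3.31 and 3.18 in df1 (adjusted p = 0.000123, and 0.117 with the block in the 6-array fit), while ATG8H and APG8H fell by 0.46 and 0.45. Of 15 tetraspanins, membrane scaffold proteins, TET7 rose by 0.64 (6.67%), TET12 and TET8 fell by 1.76 and 1.32, and TET16 passed the threshold as the third fall (20%) with 2.22 in each gtl1df1 array and 2.22, 2.33 and 2.28 in df1, values that have no order. Of 15 IQD proteins, which bind calmodulin and microtubules, 3 rose (20%) and 1 fell (6.67%), so that IQD19, iqd32 and IQD31 rose by 1.15, 1.09 and 1.03 and iqd15 fell by 1.32. A list of 5 bHLH factors known from the iron deficiency response is labelled group IVc here, to which bHLH121 does not belong. Of these, bHLH34, bHLH121 and bHLH104 fell by 0.63, 0.45 and 0.29 (60%, against 18.6% of probe sets with a mean between 7 and 9). None of those 3 was called with the block in the 6-array fit or without df1 replicate 2, and that block also called 0 of the UDP-glycosyltransferases, ATG8 proteins, tetraspanins, IQD proteins and GH9 endoglucanases, and 1 member, a fall, of the TBL family.

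Transcripts of the organelles were lower in gtl1df1 than in df1. Of 69 plastid-encoded probe sets 22 fell (31.9%, against 8.23% of all probe sets) and none rose, 67 of the 69 differences were below 0, and their median was -0.63. The plastid ribosomal protein gene rpl20 read 6.25, 6.46 and 6.41 in gtl1df1 and 7.85, 8.09 and 7.93 in df1, and it fell by 1.58 ± 0.30 (adjusted p = 0.00227), and accD, which encodes a subunit of acetyl-CoA carboxylase, fell by 1.58 ± 0.45. Of 22 mitochondrial probe sets 7 fell (31.8%) and none rose (median -0.63). The mitochondrial list averaged 4.71 in gtl1df1 and 5.41 in df1, with 4.94 in gtl1 and 4.74 in WT, so that df1 stood apart. The plastid list averaged 5.29 in gtl1df1 and 5.96 in df1, with 5.61 in gtl1, 5.62 in WT and 5.95 in DF1ox. The cytochrome oxidase gene cox2 read 7.78, 8.04 and 7.82 in gtl1df1 and 9.10, 9.41 and 9.40 in df1, and it fell by 1.42 ± 0.24 (adjusted p = 0.0012). Leaving out 1 array gave 10 to 26 plastid falls and 4 to 9 mitochondrial ones, both lowest without df1 replicate 2. With the 3′ minus 5′ difference as a covariate the plastid list had 10 falls and the mitochondrial list 6. The block in the 6-array fit called 8 and 3. The 5S ribosomal RNA control averaged 3.84 in gtl1df1 and 5.71 in df1, and its part in these falls was not tested.

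Some of these calls were lost when 1 array was left out. Among the genes that rose, the call was lost for OS9 without df1 replicate 2 or any gtl1df1 array, for PDIL5-1 without df1 replicate 2 or gtl1df1 replicate 3, for S1P and TUB9 without gtl1df1 replicate 3, for TUA1 without df1 replicate 1 or gtl1df1 replicates 1 or 2, for GH9B7 without df1 replicate 1, for ACLA-2 without any one array other than df1 replicate 3 and for IQD19 without any one array other than df1 replicate 1. The highest adjusted p was 0.123 for OS9, 0.0557 for PDIL5-1, 0.0532 for S1P, 0.0518 for TUB9, 0.0739 for TUA1, 0.0589 for GH9B7, 0.107 for ACLA-2 and 0.098 for IQD19. IAA18 lost its call without df1 replicates 1 or 3 or gtl1df1 replicates 1 or 2 (up to 0.171). Among the genes that fell, EXPA8 and COR27 lost the call without df1 replicate 2 or gtl1df1 replicate 1 (up to 0.0734 and 0.0592), accD without df1 replicates 2 or 3 or gtl1df1 replicates 1 or 3 (up to 0.101), TET8 without df1 replicates 2 or 3 or gtl1df1 replicate 1 (up to 0.0556), TET16 without any one array other than df1 replicate 1 (up to 0.135) and ATG8H without any one array (up to 0.131).

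In 13 other lists, among them the trihelix factors, tip growth, cytokinin response, iron uptake, the mitotic cycle and heat shock, none of 36 annotated probe sets was called with limma, and 3 had an unadjusted p under 0.05, where 26.4% of all probe sets did. Of the 36, 19 lay within 1 of the lowest value in all 6 arrays, and a further 39 names listed for tip growth and 20 for hair cell fate have no annotated probe set and were not analysed here. GT2, another trihelix factor, differed by 0.25 ± 0.20, and CSLD2 and SCN1, which act in hair tip growth, by -0.08 ± 0.09 and -0.02 ± 0.07. XTH26, a xyloglucan enzyme of root hairs, differed by 0.22 ± 0.19.

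The difference between gtl1df1 and df1 was then set beside GTL1 overexpression, in which no array is shared and 24.5% of all probe sets differed from WT. Of the 1871 probe sets that fell in gtl1df1, 647 (34.6%) were higher in GTL1ox than in WT, where 14.9% of all probe sets were, and 367 (19.6%) were lower, where 9.65% of all were. Of the 2097 that rose in gtl1df1, 387 (18.5%) were lower in GTL1ox and 298 (14.2%) higher. The 647 were 19.2% of the probe sets raised in GTL1ox, and the 387 were 17.6% of those lowered. The shares over all probe sets include those of low level, which were seldom called between gtl1df1 and df1. Shares matched for level were not computed, so how far these shares exceed such a baseline was not tested. With each comparison fitted on its own 6 arrays the opposite calls numbered 254 and 111. Across all 22746 probe sets, of which many vary together, the 2 differences correlated at -0.18.

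Of the genes with the largest opposite differences, AT3G10310 has been described. AT3G02480 read 6.97, 6.98 and 5.43 in gtl1df1 and 9.81, 9.86 and 8.48 in df1, and averaged 10.6 in GTL1ox and 6.40 in WT. UGT76B1 averaged 10.1 in GTL1ox and 6.24 in WT, and AT4G36010, AT1G01770 and AT2G27830 fell by 2.87, 2.73 and 3.0 in gtl1df1. In the other direction AT1G27400 averaged 5.82 in GTL1ox and 8.71 in WT, and AT4G29410, AT2G37190, AT5G62340 and AT2G41800 rose by 2.84, 2.83, 2.61 and 2.42 in gtl1df1. Of these, AT4G36010 was not called without df1 replicates 1 or 2 or gtl1df1 replicate 3 (adjusted p up to 0.0963), AT5G62340 without any one array other than gtl1df1 replicate 2 (up to 0.146) and AT2G41800 without df1 replicates 2 or 3 or gtl1df1 replicates 1 or 3 (up to 0.0928). With the block in the 6-array fit AT4G36010, AT1G01770, AT4G29410, AT5G62340 and AT2G41800 were not called (adjusted p = 0.105, 0.0755, 0.0550, 0.173 and 0.0897). GH3.3 read 12.58 to 12.80 in GTL1ox, above its df1 level, against 6.81 to 7.22 in WT.

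**Figure D5:**
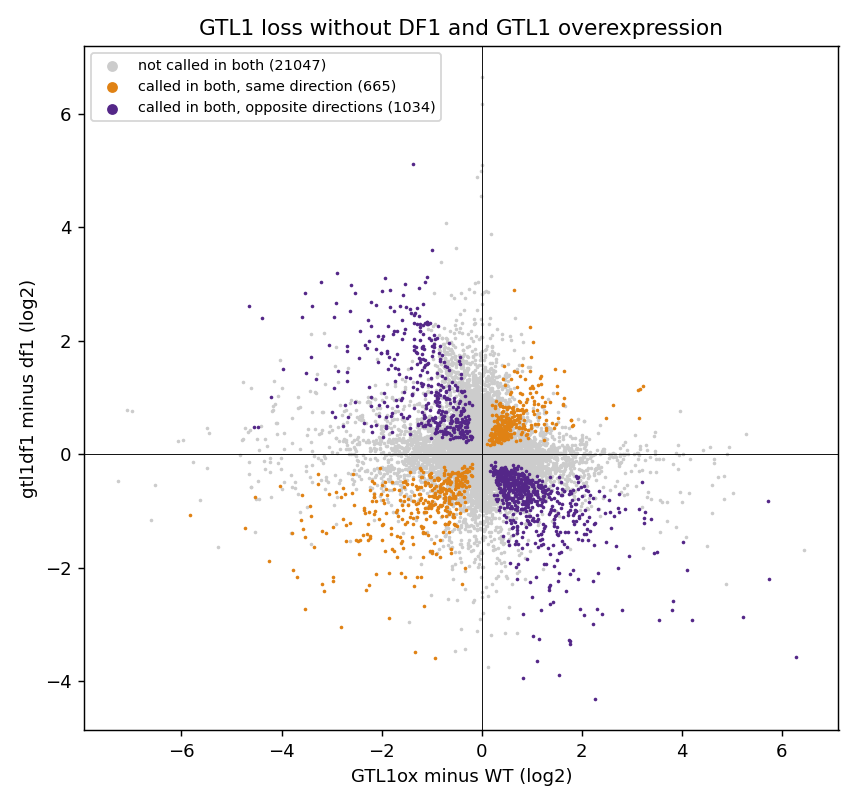
Difference of gtl1df1 minus df1 (vertical axis, log2) against GTL1ox minus WT (horizontal axis, log2) for each of 22746 probe sets, with those called in both comparisons coloured by whether they moved in opposite directions or the same direction. The opposite calls are the 647 at lower right and the 387 at upper left.

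The loss of GTL1 with DF1 present, gtl1 against WT, shares no array with gtl1df1 against df1 either, but its 2 groups differ in BioB as given above. Of the 2097 probe sets that rose in gtl1df1, 338 (16.1%) also rose in gtl1, where 5.24% of all probe sets did, and 244 (11.6%) fell, where 6.54% of all did. Of the 1871 that fell, 310 (16.6%) also fell in gtl1 and 164 (8.77%) rose. The 338 were 28.4% of the rises in gtl1 and the 310 were 20.8% of its falls. Here too the shares over all probe sets include those of low level, and shares matched for level were not computed. Across all 22746 probe sets the 2 differences correlated at -0.03. ATPMEPCRB and CSLC04 were 2.08 and 2.53 higher in gtl1 than in WT. The difference between the 2 effects of GTL1 loss, tested as an interaction, passed the threshold for 3552 probe sets (15.6%), 2020 (8.88%) above 0 and 1532 (6.74%) below 0. The part of this count that comes with the BioB division of the arrays cannot be told apart from the effect of GTL1 loss with DF1 present.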

How the data were processed

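Root hair cells were sorted in 3 biological replicates per genotype and hybridised to ATH1 arrays. The authors deposited gcRMA-normalized log2 values (GCRMA in the submitters' processing notes), which were used as deposited. The label protocol gives a different labelling for some arrays without naming their samples. The 22746 probe sets other than Affymetrix controls were tested. Of these 13513 had 1 gene in the platform annotation, 503 several and 8730 none, with symbols from TAIR10.1. A mean was fitted for each genotype over 18 arrays (limma 3.58.1, R 4.3.3; lmFit and eBayes with defaults, two-sided, Benjamini-Hochberg over all probe sets, threshold 0.05). SEs are the moderated ones. A change was given as "at least" where all arrays of the lower group lay within 1 of the lowest value. The number of arrays limits the precision. Same-numbered gtl1df1 and df1 arrays deviated together (r = 0.10, 0.21 and 0.28), so the replicate numbers were taken to pair them in the block fits. The main fit, which gave the counts, SEs and adjusted p reported without mention of a block, did not pair them. Named genes were DF1, EXPA7, the 12 largest rises and falls without overlap, list members by call and size, and the leading interactions and opposite calls. Members and lists were chosen with earlier results of these data known, and 16 lists after their values had been seen. The fit was tested on simulated data.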

Additional observations from a re-analysis of the deposited data

Results flagged for a closer look

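The interaction was (gtl1df1 minus df1) minus (gtl1 minus WT), on the log2 scale. It differed from 0 in 2020 probe sets above 0 and 1532 below 0 at an adjusted p under 0.05. These results were set apart because the gtl1df1 minus df1 and gtl1 minus WT differences were not of the same size. The gtl1 and WT arrays differ in BioB level, and this cannot be told apart from the gtl1 effect.

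Among the named genes the interaction was positive where the rise on GTL1 loss was larger without DF1. It was 2.46 for AT5G41280, 2.82 for AT3G59480, 3.91 for AT4G02160, 3.39 for AT1G11220, 1.55 for ATPMEPCRB and 2.27 for AT2G43870, and gtl1 stood above WT in each. It was 4.98 for AT1G27400, 4.56 for AT5G16130, 4.47 for AT3G16080, 5.02 for AT5G62340, 4.80 for AT4G29410, 4.52 for AT2G37190 and 4.43 for AT2G41800, in all 7 of which gtl1 stood below WT. In AT1G27400 the difference was 3.19 without DF1 and -1.79 with it.

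The interaction was negative where the fall was larger without DF1. It was -2.29 for AT1G29020, -3.12 for AT5G27750, -2.85 for AT2G15960, -3.02 for LEA4-5, -1.85 for TBL41, -2.13 for CPUORF47, -3.01 for AT2G01900, -1.57 for AT4G16146 and -2.80 for AT3G02480, with gtl1 below WT in each. It was -4.02 for AT2G41190, -3.76 for AT3G46700, -3.46 for AT1G01770, -3.29 for AT5G49900 and -3.23 for AT2G27830, with gtl1 above WT in each. AT3G46700 fell by 2.09 in gtl1df1, a call lost in the fit to the 6 arrays alone with the replicate block (adjusted p = 0.218) and without it (0.126), and was 1.67 higher in gtl1 than in WT.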

How the results depend on the processing

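Fitting only the 6 gtl1df1 and df1 arrays called 1177 probe sets lower in gtl1df1, against 1871. The replicate block on those 6 arrays called 459 higher and 379 lower, and 93 of the 133 named genes with a call lost it there, while the block for the paired arrays in the 18-array fit took 6 of these calls. With each comparison on its own 6 arrays, the opposite calls with GTL1ox were 254 and 111, against 647 and 387. Under the other alternatives these counts over all probe sets lay within 1.5 times those reported, while counts within single gene lists moved further, as given with the plastid, ER and group IVc bHLH lists, and 0 named results that were called changed direction in any. Leaving out 1 of the 6 arrays called 3035 to 3716 probe sets. Among the calls lost with the 3′ minus 5′ difference as a covariate were those of EXPA7, OS9, IQD19 and IAA18 (adjusted p = 0.0732, 0.0871, 0.104 and 0.0543). Those of STZ, accD, ATG8H, TET16 and bHLH104 were also lost (0.164, 0.0860, 0.147, 0.137 and 0.0712). Values near 2.22 have no order, and 48.9% of probe sets lay within 1 of it in all 6 arrays.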
